A study of Mus musculus with 12 samples.

Results

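The genes described here encode 6 neuronal RNA-binding proteins of 3 families, namely Elavl2, Elavl3 and Elavl4, Celf3 and Celf4, and Rbfox3. They were taken by gene symbol, and all 6 were found among the 29641 genes listed in the cochlea or the vestibule. The libraries hold RNA bound to tagged ribosomes from the inner ear of newborn mice at P0 to P1. Mutants were Gfi1Cre/Cre;RiboTagHA/HA and heterozygotes were Gfi1Cre/+;RiboTagHA/HA, with 3 libraries per genotype from the hearing organ, the cochlea, and 3 per genotype from the balance organs of the vestibule. Both genotypes therefore carried the RiboTag allele, which gives a ribosomal protein an HA tag in cells with Cre, and Cre at the Gfi1 locus. The mutants carried Cre on both copies of Gfi1, and the heterozygotes kept 1 copy of Gfi1 without it. A larger dose of Cre and the loss of unmodified Gfi1, a transcriptional repressor that hair cells need, cannot be told apart in this design. The labels call the cochlear libraries enriched for hair cells and the vestibular ones enriched for vestibular cells. Cochlear and vestibular libraries were made with different kits, so levels were compared within an organ and not between organs.

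ELAVL proteins, also called Hu proteins, bind AU-rich and U-rich stretches in messenger RNAs and raise their stability and translation. ELAVL1 (HuR) is found in nearly every cell, while ELAVL2 (HuB), ELAVL3 (HuC) and ELAVL4 (HuD) are hallmarks of neurons and act in neuronal differentiation. CELF and RBFOX proteins regulate alternative splicing, the RBFOX proteins through the motif UGCAUG. RBFOX3 is the NeuN antigen by which mature neurons are recognised, and CELF3 and CELF4 are mainly neuronal. Hair cells are sensory epithelial cells that share some genes with neurons, while the ganglion neurons that contact them lie close by.

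The members called in at least 1 organ are shown by their promoters, because GFI1 is a repressor that binds DNA and these genes were the ones that differed between the genotypes. Each window runs from 250 bases before to 50 bases after a RefSeq start site on GRCm38.p6, is printed 5′ to 3′ on the gene's strand, and is the most 5′ of that gene's windows. Capitals mark AATC, the core of the GFI1 motif, also as its reverse complement GATT, and CANNTG, the E-box bound by basic helix-loop-helix factors.
Elavl2, chr4:91399935-91400234, minus strand: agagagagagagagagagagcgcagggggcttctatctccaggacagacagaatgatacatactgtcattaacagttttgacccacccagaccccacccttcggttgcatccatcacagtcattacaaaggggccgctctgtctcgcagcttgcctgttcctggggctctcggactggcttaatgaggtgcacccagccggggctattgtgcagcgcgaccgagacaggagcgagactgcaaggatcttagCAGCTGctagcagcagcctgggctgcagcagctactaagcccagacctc
Elavl3, chr9:22051974-22052273, minus strand: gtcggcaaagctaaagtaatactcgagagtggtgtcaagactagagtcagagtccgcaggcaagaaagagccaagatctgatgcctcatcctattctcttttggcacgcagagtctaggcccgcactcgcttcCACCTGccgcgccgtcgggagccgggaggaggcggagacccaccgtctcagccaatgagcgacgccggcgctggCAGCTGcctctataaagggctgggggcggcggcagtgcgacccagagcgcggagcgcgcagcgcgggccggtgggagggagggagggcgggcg
Elavl4, chr4:110351862-110352161, minus strand: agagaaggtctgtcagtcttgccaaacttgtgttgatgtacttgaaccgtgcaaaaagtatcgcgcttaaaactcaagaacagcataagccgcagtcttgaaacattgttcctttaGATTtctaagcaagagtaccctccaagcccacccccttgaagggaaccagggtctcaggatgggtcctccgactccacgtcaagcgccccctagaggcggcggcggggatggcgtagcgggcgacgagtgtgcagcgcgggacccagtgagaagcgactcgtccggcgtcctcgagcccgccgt
Rbfox3, chr11:118760992-118761291, minus strand: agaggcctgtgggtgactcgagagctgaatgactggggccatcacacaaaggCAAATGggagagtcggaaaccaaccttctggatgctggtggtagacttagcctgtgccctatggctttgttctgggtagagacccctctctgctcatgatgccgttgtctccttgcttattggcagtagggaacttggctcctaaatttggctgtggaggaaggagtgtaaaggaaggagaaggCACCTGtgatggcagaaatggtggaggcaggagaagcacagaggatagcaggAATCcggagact

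The Elavl3 window held 2 E-boxes, the Elavl2 window 1 and the Rbfox3 window 2. AATC was found once in the Elavl4 window and once in the Rbfox3 window, and no match overlapped a match to the other motif. The windows not shown differ, since AATC was in 5 of the 6 Elavl2 windows and an E-box in 3 of the 4 Elavl4 windows. The start site of the Rbfox3 window lies 150556 bases inside the 5′ end of the gene in GENCODE M21, and that of the Elavl2 window 801 bases inside. RefSeq windows were matched for 5 of the 6 members and numbered 19, of which 16 held AATC and 18 an E-box on either strand. Many windows of the same gene overlap, and by gene AATC was found in 4 of the 5 matched members and an E-box in 5. Over all 32851 RefSeq promoters 73.1% held AATC and 72.3% an E-box, so both motifs are common in windows of this length. The left part of the motif of the neuronal repressor REST, searched as TTCAGCACC, was in 0 of the 19 windows and in 0.371% of all promoters. Its right part, searched as GGACAG, was in 3 of the 19 and in 22.2% of all promoters. These letter matches are a description of the windows and not evidence of binding.

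Some facts of the whole series touch every value below. Total reads were 7531518 to 9363796 per cochlear library and 18951026 to 29370267 per vestibular library. A single read equalled 0.107 to 0.133 CPM (reads of a gene scaled to the library's total, so that all reads sum to the same number) in cochlear libraries and 0.0340 to 0.0528 CPM in vestibular libraries. Gfi1 had 75.1, 64.3 and 69.1 CPM in mutant cochleae, against 165, 106 and 126 CPM in heterozygous cochleae. In the vestibule Gfi1 had 236, 198 and 208 CPM in mutants, against 534, 450 and 483 CPM in heterozygotes. In both organs every mutant value was under every heterozygous one, while many reads assigned to Gfi1 remained in the mutants. Both vestibular replicate 1 libraries stood apart on the first principal component, and both cochlear replicate 3 libraries stood apart on the second. A change or difference below is the mutant mean minus the heterozygous mean of log2(CPM + 1), with limma's standard error (SE). The main fits leave out the replicate number, although same-numbered libraries deviated together. The added 1 CPM makes changes of genes at low levels look smaller.

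In the mutant cochlea 3 of the 6 members rose, Elavl3, Elavl4 and Rbfox3, where 1.90% of the 17985 genes tested were called higher. In the mutant vestibule 3 of 6 rose as well, Elavl2, Elavl4 and Rbfox3, where 2.41% of 15595 genes were called higher. All 6 members passed the filter of 1 CPM in 3 libraries in both organs. Calls were made at an adjusted p under 0.05 (limma, Benjamini-Hochberg over the genes tested in that organ). The groups did not overlap for the 3 called members of each organ, with every mutant library above every heterozygous one, which held for 9.74% of genes in the cochlea and 10.7% in the vestibule. Without both vestibular replicate 1 libraries the same 3 vestibular members were called, where 3.41% of genes were called higher. Without both cochlear replicate 3 libraries 2 cochlear members were called, Elavl3 and Elavl4, where 1.74% of genes were. With the replicate number as a block the same 3 cochlear members were called, where 757 of 17985 genes were called higher. In the vestibule the block called Celf3 beside the same 3, where 10.5% of genes were called higher. The 6 members together summed to 190, 310 and 238 CPM in mutant cochleae and to 113, 141 and 146 CPM in heterozygous cochleae. Their vestibular sums were 91.2, 81.3 and 95.1 CPM in mutants and 31.8, 33.2 and 29.0 CPM in heterozygotes. In bulk libraries more cells of a type and more RNA per cell cannot be told apart.

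**Figure D1:**
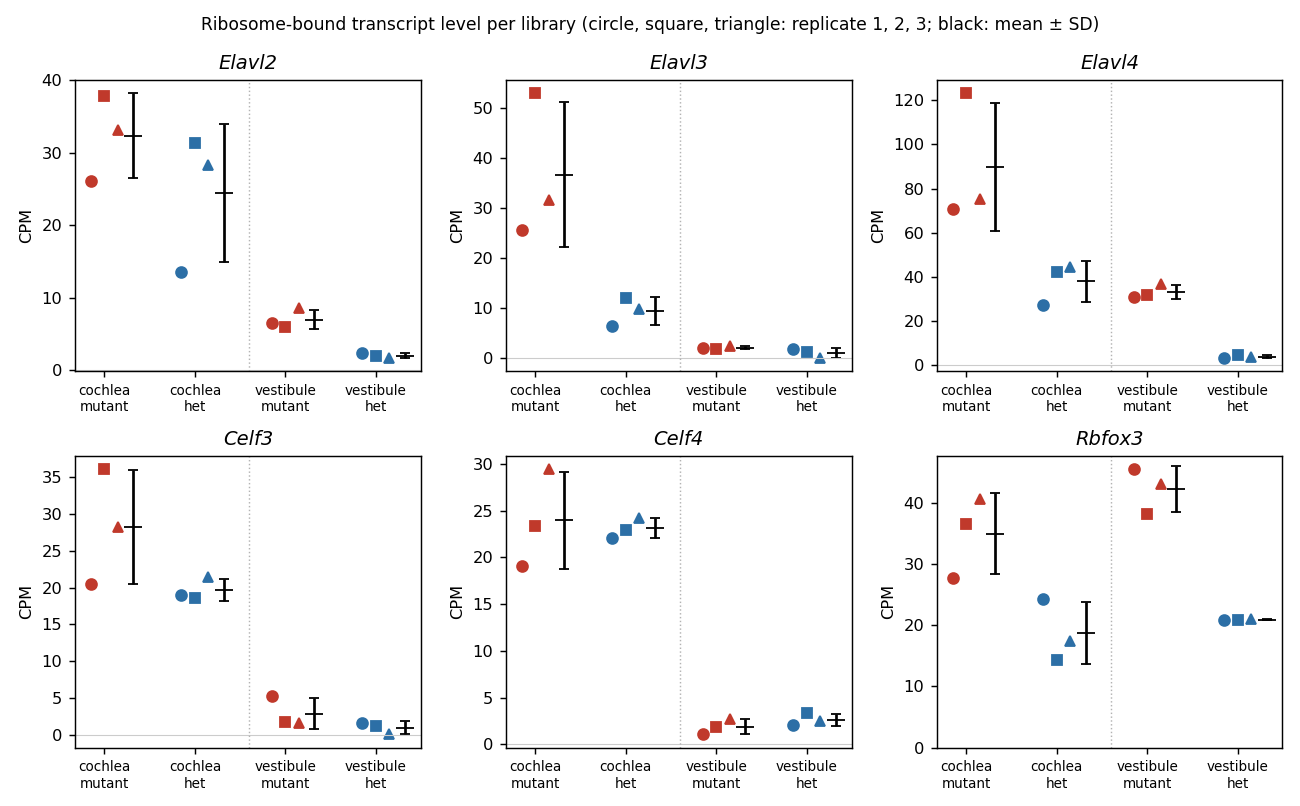
CPM of each member in each of the 12 libraries, mutants in red and heterozygotes in blue, with the replicate number as the symbol and the mean ± SD in black. The Elavl4 and Rbfox3 mutant libraries lie above the heterozygous ones in both organs, those of Elavl3 do so in the cochlea and those of Elavl2 in the vestibule.

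Elavl4, which encodes HuD (ENSMUSG00000028546, chromosome 4, 110203722 to 110351909 on GRCm38, minus strand), was the member called in both organs with the largest ratio in the vestibule. Its level was 30.8, 31.9 and 36.7 CPM in mutant vestibules, against 3.21, 4.49 and 3.85 CPM in heterozygous vestibules. Every mutant library was far above every heterozygous one, and the ratio of the means was 8.61. The change was 2.82 (SE 0.19; limma, Benjamini-Hochberg adjusted p = 0.000286). Cochlear Elavl4 levels were 70.7, 123 and 75.4 CPM in mutants, against 27.2, 42.1 and 44.5 CPM in heterozygotes. Mutant replicate 2 stood well above the other mutants, and the lowest mutant library was still above the highest heterozygous one. Elavl4 rose there by 1.21 (SE 0.22; limma, Benjamini-Hochberg adjusted p = 0.00497), a ratio of means of 2.37.

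Elavl3, which encodes HuC (ENSMUSG00000003410, chromosome 9, 22015005 to 22052023, minus strand), had the largest change of the 6 in the cochlea. It stood at 25.5, 52.9 and 31.5 CPM in mutant cochleae, against 6.48, 11.9 and 9.83 CPM in heterozygous cochleae. The groups were well separated, with mutant replicate 2 again the highest. Elavl3 rose by 1.82 (SE 0.27; limma, Benjamini-Hochberg adjusted p = 0.000996), a ratio of means of 3.89. In the vestibule its level was low, at 2.11, 1.74 and 2.42 CPM in mutants and 1.83, 1.26 and 0 CPM in heterozygotes. The last value is 0 of 29370267 reads, which allows up to 0.102 CPM by counting error, so heterozygous replicate 3 lay apart from the other two. The vestibular groups overlapped, with a difference of 0.73 (SE 0.39; limma, Benjamini-Hochberg adjusted p = 0.424). GENCODE M21 assigns 3.72% of Elavl3 exon bases also to Gm49318 on the same strand, which could share reads with it.

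Elavl2, which encodes HuB (ENSMUSG00000008489, chromosome 4, 91250763 to 91400785, minus strand), rose in the vestibule. It had 6.44, 5.95 and 8.52 CPM in mutant vestibules, against 2.32, 1.93 and 1.67 CPM in heterozygous vestibules. These are low levels, but the 2 groups did not overlap and the ratio of the means was 3.53. The change was 1.41 (SE 0.23; limma, Benjamini-Hochberg adjusted p = 0.0143), and it was 0.87 with a pseudocount of 4. Leaving out replicate 2 or replicate 3 of either genotype ended the call (adjusted p 0.0511 to 0.0744), as did leaving out both replicate 3 libraries (0.238) or dropping the filter on low values (0.072). In the cochlea Elavl2 had 26.1, 37.8 and 33.1 CPM in mutants and 13.6, 31.3 and 28.3 CPM in heterozygotes. Heterozygous replicate 1 was low there, and the other heterozygous libraries lay within the mutant range. The cochlear difference was 0.46 (SE 0.26; limma, Benjamini-Hochberg adjusted p = 0.574).

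Rbfox3, which encodes NeuN (ENSMUSG00000025576, chromosome 11, 118489762 to 118911597, minus strand), was called in both organs. Its level was 45.5, 38.2 and 43.0 CPM in mutant vestibules, against 20.8, 20.9 and 20.9 CPM in heterozygous vestibules. The heterozygous libraries were almost equal, with an SD of 0.0937 CPM, and each mutant library was far above them, with a ratio of means of 2.02. The change was 0.98 (SE 0.14; limma, Benjamini-Hochberg adjusted p = 0.00849). That call was lost without heterozygous replicate 2 (adjusted p 0.0521), mutant replicate 3 (0.0547) or both replicate 3 libraries (0.174).

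In the cochlea Rbfox3 had 27.6, 36.5 and 40.5 CPM in mutants, against 24.3, 14.3 and 17.4 CPM in heterozygotes. The lowest mutant and the highest heterozygous library, both replicate 1, lay close together. Rbfox3 rose by 0.88 (SE 0.21; limma, Benjamini-Hochberg adjusted p = 0.0273), a ratio of means of 1.87. The call was lost with edgeR on recovered reads (adjusted p 0.0548), without heterozygous replicate 2 (0.128), mutant replicate 2 (0.123) or mutant replicate 3 (0.109), and without both replicate 3 libraries (0.128).

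Celf3 and Celf4, which encode neuronal splicing regulators, were not called in either organ. Celf3 (ENSMUSG00000028137, chromosome 3, 94478295 to 94492198, plus strand) had 20.5, 36.0 and 28.1 CPM in mutant cochleae, against 18.9, 18.6 and 21.4 CPM in heterozygous cochleae. Mutant replicate 1 lay within the heterozygous range, and the difference was 0.47 (SE 0.20; limma, Benjamini-Hochberg adjusted p = 0.342). Vestibular Celf3 levels were 5.33, 1.74 and 1.64 CPM in mutants, against 1.70, 1.30 and 0.102 CPM in heterozygotes. The high mutant and the high heterozygous value were both replicate 1, and the lowest rested on 3 reads. The difference of 0.91 (SE 0.46; limma, Benjamini-Hochberg adjusted p = 0.386) was called with the replicate number as a block (adjusted p 0.0233). That fit called 10.5% of vestibular genes higher, and 4 of the 6 members. Without both vestibular replicate 3 libraries 1 of the 6 was called, Elavl4, where 0.237% of genes were called higher.

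Celf4 (ENSMUSG00000024268, chromosome 18, 25477632 to 25754157, minus strand) had 19.1, 23.4 and 29.4 CPM in mutant cochleae and 22.1, 23.0 and 24.2 CPM in heterozygous cochleae. The mutant values spread around the heterozygous ones, with a difference of 0.03 (SE 0.18; limma, Benjamini-Hochberg adjusted p = 0.985). Vestibular Celf4 levels were 1.06, 1.87 and 2.74 CPM in mutants and 2.01, 3.31 and 2.49 CPM in heterozygotes. Celf4 was the member with a negative vestibular value, -0.35 (SE 0.30; limma, Benjamini-Hochberg adjusted p = 0.648), and its groups overlapped.

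The other genes of the same families were compared next, since they share the binding domains but are mostly not restricted to neurons. Elavl1, which encodes HuR, had 132 ± 5.81 CPM in mutant cochleae and 133 ± 4.45 CPM in heterozygous cochleae (SD, n = 3 each). In the vestibule it had 141 ± 16.3 CPM in mutants and 132 ± 11 CPM in heterozygotes, so its differences of -0.01 (cochlea) and 0.09 (vestibule) were within the spread of the libraries. Celf1, a widely expressed splicing regulator, differed by 0.02 and 0.09, and Celf2, expressed in brain, heart and blood cells among others, by 0.03 and -0.24. In the vestibule every mutant library was below every heterozygous one for Celf2, at 88.8, 106 and 103 CPM in mutants, against 110, 135 and 108 CPM in heterozygotes (limma, Benjamini-Hochberg adjusted p = 0.476). Celf5 and Celf6 were low, averaging under 6 CPM in every group, and were not called.

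Rbfox1 encodes another splicing regulator of neurons and muscle, and its changes were close in size to those of Rbfox3. It had 40.5, 36.5 and 40.8 CPM in mutant vestibules, against 19.1, 18.4 and 19.2 CPM in heterozygous vestibules, and rose by 1.02 (SE 0.14; limma, Benjamini-Hochberg adjusted p = 0.00663). The groups were far apart, though without both replicate 3 libraries the adjusted p was 0.156. In the cochlea Rbfox1 had 18.4, 29.9 and 28.1 CPM in mutants, against 12.4, 15.9 and 14.7 CPM in heterozygotes. The groups did not overlap there either, but the difference of 0.76 (SE 0.21; limma, Benjamini-Hochberg adjusted p = 0.0608) was not called. It was called with the replicate number as a block (adjusted p 0.00232), with DESeq2 (0.0216), in the fit of all 12 libraries (0.0223) and without mutant replicate 1 (0.0218).

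Rbfox2, the most abundant gene of its family here, had 383, 404 and 406 CPM in mutant vestibules, against 270, 315 and 318 CPM in heterozygous vestibules. These groups did not overlap, and the difference of 0.40 (SE 0.12; limma, Benjamini-Hochberg adjusted p = 0.128) was called with the block (adjusted p 0.00137) and with DESeq2 (0.00937). In the cochlea Rbfox2 averaged 267 ± 38.9 CPM in mutants and 277 ± 16.7 CPM in heterozygotes (SD, n = 3 each), a difference of -0.06. With limma 0 of the 7 paralogs were called in the cochlea, with 1 higher at an unadjusted p under 0.05, 0 called with edgeR and 1, Rbfox1, with DESeq2 and with the block. In the vestibule 1 of 7 was called, Rbfox1, and 2 with DESeq2 and with the block. Of all 17985 cochlear genes the block called 757 higher and 775 lower, and DESeq2 359 higher and 596 lower. Of all 15595 vestibular genes the block called 1637 higher and 1997 lower, and DESeq2 811 higher and 423 lower. These are the background for the blocked and DESeq2 counts of the lists below.

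**Figure D2:**
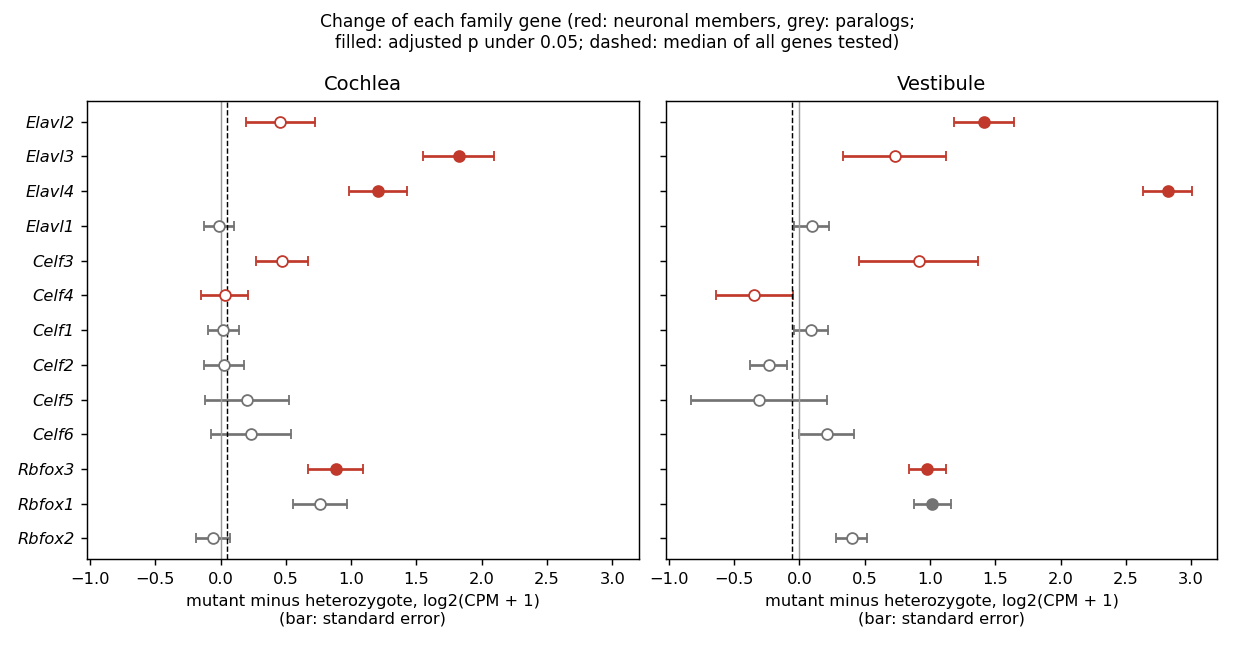
Mutant minus heterozygote change of the 13 Elavl, Celf and Rbfox genes on the log2(CPM + 1) scale in each organ, with bars for the standard error and filled symbols for genes called. Elavl4 in the vestibule has the largest change, 2.82, Rbfox1 is the paralog called there, and Elavl1 and Celf1 lie near the median of all genes tested.

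Levels can be set side by side between genes only per length of exon, and the summed Elavl level was therefore divided among its 4 genes as CPM per kb. The neuronal Elavl2, Elavl3 and Elavl4 made up 62.0%, 72.5% and 64.2% of it in mutant cochleae, against 38.0%, 50.1% and 50.9% in heterozygous cochleae. The vestibular shares were 36.3%, 32.9% and 35.3% in mutants, against 9.0%, 8.47% and 6.47% in heterozygotes. The 2 genotypes did not overlap in either organ, and no test was made of these shares. Within the neuronal trio Elavl4 held 64.3% ± 1.98 in mutant cochleae and 62.7% ± 3.79 in heterozygous cochleae, while in the vestibule it held 84.4% ± 1.38 in mutants and 65.7% ± 12.9 in heterozygotes (SD, n = 3 each). Elavl4 had shares of 84.1%, 85.9% and 83.2% in mutant vestibules, against 52.3%, 66.8% and 78.1% in heterozygous vestibules.

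**Figure D3:**
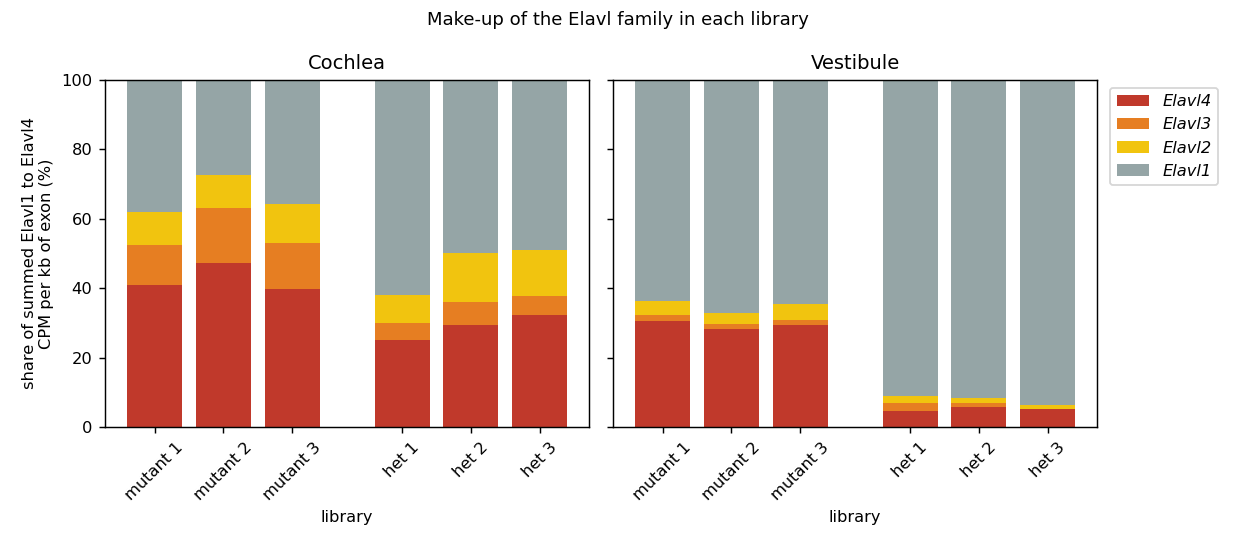
Share of each Elavl gene in the summed Elavl1 to Elavl4 level per kb of exon in each library, as stacked bars from 0 to 100%. Elavl1, in grey, averages 33.8% in mutant cochleae and 53.7% in heterozygous cochleae, and 65.1% in mutant vestibules and 92.0% in heterozygous vestibules.

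The Rbfox and Celf families were divided in the same way. Rbfox3 held 13.5% ± 2.18 of the Rbfox level per kb in mutant cochleae and 7.97% ± 2.34 in heterozygous cochleae, and 11.2% ± 1.02 in mutant vestibules and 8.02% ± 0.577 in heterozygous vestibules (SD, n = 3 each). Rbfox2 held most of that family in each group, from 73.7% in mutant cochleae to 84.0% in heterozygous cochleae. Celf3 and Celf4 together held 15.9% ± 3.61 of the Celf level in mutant cochleae and 13.2% ± 1.41 in heterozygous cochleae. Their vestibular share was 2.52% ± 1.10 in mutants and 1.71% ± 0.590 in heterozygotes, so Celf1, Celf2, Celf5 and Celf6 made up nearly the whole family there.

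Among the members themselves the order of levels per kb differed with genotype. In mutant cochleae Elavl4 led with 16.7 CPM per kb, apart from Rbfox3 at 6.0, Elavl3 at 5.32, Celf3 at 5.16, Elavl2 at 3.89 and Celf4 at 2.79 CPM per kb, whose neighbours in that order overlapped. In heterozygous cochleae Elavl4 also led, with 7.04 CPM per kb, and Elavl3 was last, at 1.37 CPM per kb and apart from Celf4 at 2.69 CPM per kb. In mutant cochleae the range of Elavl3 overlapped those of Rbfox3, Celf3 and Elavl2, so its rank among them is not settled. In mutant vestibules Rbfox3 at 7.26 and Elavl4 at 6.15 CPM per kb overlapped, and the other 4 lay at or under 0.838 CPM per kb. In heterozygous vestibules Rbfox3 at 3.59 CPM per kb was apart from Elavl4 at 0.715 CPM per kb, and the other 4 lay at or under 0.303 CPM per kb.

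Whether the change differed between the organs was tested as the cochlear change minus the vestibular change in 1 fit of the 12 libraries, over 14674 genes. Of the 6 members 1 differed, Elavl4, where 3.14% of genes were called and 2.43% with the smaller value in the cochlea. The cochlear change of Elavl4 was smaller by 1.61 on the log2 scale (interaction -1.61, SE 0.32; limma, Benjamini-Hochberg adjusted p = 0.0110). This call was lost with a pseudocount of 4 (adjusted p 0.0584) and without both cochlear replicate 3 libraries (0.0907), a fit in which 1.91% of genes were called. Kit and organ cannot be told apart in this difference.

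Elavl3 and Elavl2 were each called in 1 organ, but their organ differences were not called. That of Elavl3 was 1.09 (SE 0.51; limma, Benjamini-Hochberg adjusted p = 0.376), or 1.27 and called with a pseudocount of 4 (adjusted p 0.0452). That of Elavl2 was -0.96 (SE 0.39; limma, Benjamini-Hochberg adjusted p = 0.285), and was called with the block (adjusted p 0.0308), a fit that called 13.3% of genes, and without cochlear heterozygous replicate 1 (0.0417). Rbfox3 had an organ difference of -0.10 (SE 0.27; limma, Benjamini-Hochberg adjusted p = 0.918), and Celf3 and Celf4 had -0.44 and 0.38.

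The genes whose profiles lay nearest to each called member were found among 13367 genes, by the root mean square (RMS) difference of log2(CPM + 1) over the 12 libraries after centring within each organ. Nearest to Elavl4 were Nap1l2 (RMS 0.217), which encodes a neuronal nucleosome assembly protein, and Nmnat2 (0.229), which encodes a NAD-synthesising enzyme that keeps axons intact. Nmnat2 had 113, 104 and 104 CPM in mutant vestibules, against 22.1, 19.7 and 18.0 CPM in heterozygous vestibules, and 15, 27.9 and 20.7 CPM in mutant cochleae, against 5.84, 9.03 and 9.61 CPM in heterozygous cochleae. All nearest genes were picked for likeness to a member over these same libraries, so a shared pattern follows from the choice. Nearest to Elavl3 were Foxo6 (0.312), a forkhead factor of the brain, and Nsg2 (0.327), a neuronal endosomal protein gene. Nsg2 had 28.9, 56.0 and 30.0 CPM in mutant cochleae, against 6.10, 8.63 and 11.5 CPM in heterozygous cochleae. Nearest to Elavl2 were Fam196b (0.254) and Mycl (0.255), a Myc family factor, and nearest to Rbfox3 were Eml1 (0.152), which encodes a microtubule-binding protein, and Sall1 (0.182), a zinc finger factor gene. For scale, the members' own RMS distances from their organ means were 1.11 for Elavl4, 0.815 for Elavl3, 0.606 for Elavl2 and 0.505 for Rbfox3.

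The wider group of RNA-binding proteins was counted next. Of 16 further RNA-binding protein genes of neurons, among them the Nova splicing factors and the Cpeb translation factors, limma called 0 in the cochlea, with 1 higher and 1 lower at an unadjusted p under 0.05. With edgeR, DESeq2 and the block 1 was lower, Cpeb3 (52.8 ± 1.5 CPM in mutants and 73.7 ± 5.12 CPM in heterozygotes; SD, n = 3 each), named after its values were seen. In the vestibule limma called 0 of the 16, with 2 higher and 1 lower unadjusted, edgeR and DESeq2 each called 1 higher, and the block called 2 higher and 4 lower. Over all 15595 vestibular genes edgeR called 391 higher, DESeq2 811 higher, and the block 1637 higher and 1997 lower. Their median change was 0.09 in the cochlea and 0.03 in the vestibule, beside 0.05 and -0.06 over all genes tested.

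Srrm4, a splicing activator of neuronal microexons that hair cells also need, was the gene called by edgeR and DESeq2. It had 119, 128 and 112 CPM in mutant vestibules, against 62.9, 87.5 and 76.9 CPM in heterozygous vestibules. The groups did not overlap, and the difference was 0.66 (SE 0.15; limma, Benjamini-Hochberg adjusted p = 0.0524), with 0.0448 in edgeR, 0.00117 in DESeq2 and 0.000153 with the block. In the cochlea Srrm4 averaged 166 ± 48.9 CPM in mutants and 165 ± 11.3 CPM in heterozygotes (SD, n = 3 each), a difference of -0.03.

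Rest, which encodes a repressor of neuronal genes that SRRM4 inactivates in hair cells, had 136 ± 27.1 CPM in mutant cochleae and 136 ± 12.8 CPM in heterozygous cochleae (SD, n = 3 each). In the vestibule it had 70.1 ± 6.25 CPM in mutants and 84.3 ± 18.0 CPM in heterozygotes, with overlapping groups and a difference of -0.24. Of the 5 genes of REST and its corepressors limma called 0 in each organ, with 1 lower in each at an unadjusted p under 0.05. That gene, Hdac1, a histone deacetylase gene named after its values were seen, was lower with DESeq2 in the cochlea and with the block in both organs, while edgeR called 0 in each.

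Of 16 RNA-binding protein genes known mainly from other tissues or from progenitors 1 was called in the cochlea, and it fell, where 2.52% of all genes were called lower. Rbm24, a splicing regulator of muscle and hair cells, had 112, 86.6 and 106 CPM in mutant cochleae, against 205, 156 and 179 CPM in heterozygous cochleae. All mutant libraries were below all heterozygous ones, and Rbm24 fell by 0.82 on the log2 scale (SE 0.14; limma, Benjamini-Hochberg adjusted p = 0.00330). Vestibular Rbm24 levels were 294, 216 and 234 CPM in mutants and 233, 187 and 199 CPM in heterozygotes, with overlap and a difference of 0.25 that was called with the block (adjusted p 0.0231). With limma 0 of these 16 genes were called in the vestibule, with 1 lower unadjusted and 0 called with edgeR or DESeq2, while the block called 2 higher and 4 lower. In the cochlea the block called 1 higher and 1 lower.

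Messenger RNAs known as targets of neuronal ELAVL proteins were counted from a list of 11. Gap43 and Mapt are also in the cytoskeletal list below, and Nova1 is among the further RNA-binding protein genes above. Calls of these genes were counted in both lists. In the cochlea 3 of 11 were called, all higher, beside 1.90% of all genes, with a median change of 0.15. With the block 3 were higher and 1 lower. The messenger RNA of Gap43, a growth cone protein gene, is a classic target of HuD. Gap43 had 81.7, 182 and 90.7 CPM in mutant cochleae, against 9.91, 13.7 and 12.1 CPM in heterozygous cochleae. It rose by 3.13 (SE 0.25; limma, Benjamini-Hochberg adjusted p = 7.15e-06), and mutant replicate 2 was again the highest. Mycn, a proto-oncogene, rose by 1.29 (SE 0.18) and Marcks, which encodes a membrane-associated kinase substrate, by 0.80 (SE 0.12). The Marcks call was lost without both replicate 1 libraries (adjusted p 0.0584).

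In the vestibule 10 of the 11 targets were tested and 1 was called, Cdkn1a, which encodes the cell cycle inhibitor p21. It had 99.5, 116 and 109 CPM in mutants, against 64.8, 67.2 and 62.6 CPM in heterozygotes, and rose by 0.73 (SE 0.12; limma, Benjamini-Hochberg adjusted p = 0.0143). The groups were apart, yet leaving out replicate 2 or replicate 3 of either genotype ended the call (adjusted p 0.0600 to 0.0877). Gap43 had 6.07, 6.63 and 5.61 CPM in mutant vestibules, against 3.04, 4.19 and 2.72 CPM in heterozygous vestibules, a difference of 0.73 (SE 0.22; limma, Benjamini-Hochberg adjusted p = 0.146). These groups did not overlap, and Gap43 was called there with the block (adjusted p 0.018). With the block 5 targets were higher and 1 lower in the vestibule. The list's median there was 0.35, beside -0.06 for all genes.

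Genes of the neuronal cytoskeleton, which shape axons and growth cones, were called in both organs. In the cochlea 9 of 17 were called, all higher, with a median of 0.76. Over all cochlear genes tested 1.90% were called higher, with a median of 0.05. Tubb3, which encodes the neuronal tubulin, had 19.0, 70.1 and 35.7 CPM in mutant cochleae, against 2.79, 3.58 and 4.49 CPM in heterozygous cochleae, and rose by 3.03 (SE 0.36). Tubb3, Stmn2 (2.13, SE 0.29) and Ina (1.48, SE 0.20) were each highest in mutant replicate 2, the replicate in which Elavl2, Elavl3, Elavl4 and Celf3 were highest. Stmn4 (2.76), Tubb2b (1.56), Map1b (1.15), Nefm (0.81) and Crmp1 (0.76) were the other genes called beside Gap43, and 11 of the 17 were called with the block. The call of Map1b was lost without heterozygous replicate 1 (adjusted p 0.0637), that of Crmp1 without heterozygous replicate 1, heterozygous replicate 2 or mutant replicate 2 (0.0848 to 0.122) and with no filter, TMM or median-of-ratios rescaling (0.0559 to 0.0622), and that of Nefm without both replicate 1 libraries (0.0582).

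In the vestibule 5 of 15 cytoskeletal genes were called, all higher, with a median of 0.72. Over all vestibular genes tested 2.41% were called higher, with a median of -0.06. Tubb2b, a tubulin of young neurons, rose by 1.43 (SE 0.21) and Map1b, a microtubule-associated protein gene, by 1.12 (SE 0.17). The neurofilament genes Ina (0.88, SE 0.19), Nefm (0.74, SE 0.14) and Nefl (0.70, SE 0.14) were the other 3, and their calls were lost without any single library other than heterozygous replicate 1 (adjusted p up to 0.188). Without both replicate 3 libraries 0 of the 15 were called by limma, with 6 higher at an unadjusted p under 0.05. That fit called 0.237% of all vestibular genes higher. With the block 10 were higher and 1 lower.

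**Figure D4:**
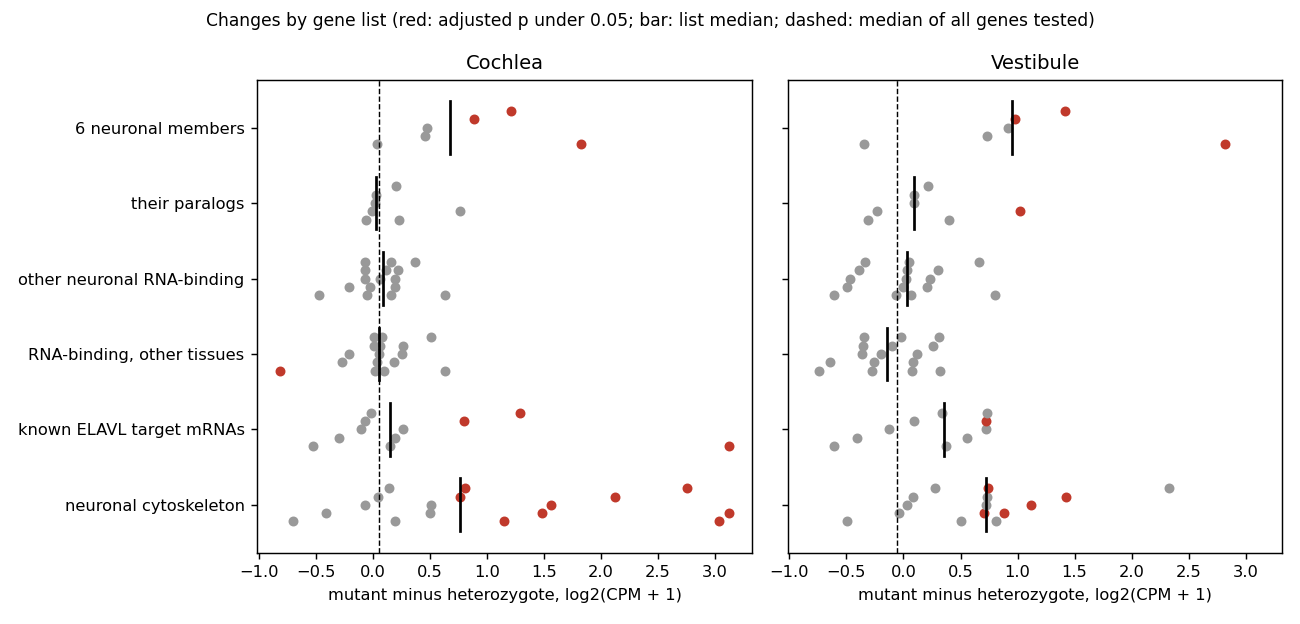
Change of each tested gene of 6 lists in each organ on the log2(CPM + 1) scale, with called genes in red, a bar at the list's median and a dashed line at the median of all genes tested. The medians of the 6 members (0.68 in the cochlea, 0.95 in the vestibule) and of the neuronal cytoskeleton (0.76 and 0.72) lie right of the dashed line, and those of the paralogs (0.03 and 0.09) lie near it.

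Markers of the cell types that the pull-down could hold moved with genotype beside the members, and their part in the members' changes was not tested. Markers of ganglion and other neurons summed to 1848 to 1894 CPM in mutant cochleae and 1101 to 1212 CPM in heterozygous cochleae, with 5 of 12 called, all higher, and 7 with the block. In the vestibule they summed to 2331 to 2405 CPM in mutants and 1420 to 1606 CPM in heterozygotes, with 4 of 10 higher and 2 lower. Over all genes tested 1.90% were called higher in the cochlea, and 2.41% higher and 1.09% lower in the vestibule. Nefm held the largest part of these sums, and Thy1 was the marker at 0 in at least 1 vestibular library. Nefl, Nefm, Nefh, Prph and Stmn2 were also in the cytoskeletal list, so calls among them were counted in both lists. The synaptic gene Snap25 rose in both organs, by 0.75 (SE 0.12) in the cochlea and 1.18 (SE 0.15) in the vestibule. Without both replicate 1 libraries 1 of the 12 cochlear markers was called, Stmn2, where 181 of 17985 genes were called higher. Without both replicate 3 libraries 0 of the 10 vestibular markers were called, with 4 higher and 2 lower unadjusted in limma. That vestibular fit called 0.237% of all genes higher and 12 of 15595 lower.

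Glial markers, of the cells that accompany ganglion neurons, summed to 224 to 254 CPM in mutant cochleae and 191 to 282 CPM in heterozygous cochleae, with 0 of 10 called by limma, edgeR or DESeq2 and 0 unadjusted. The vestibular sums were 204 to 241 CPM in mutants and 352 to 382 CPM in heterozygotes. In the mutant vestibule the neuronal marker sums lay above those of heterozygotes and the glial sums below, and the cause was not tested. The neuronal sums do not stand for each marker, since 2 of the 10 tested were called lower there.

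Hair cell markers summed to 3766 to 4527 CPM in mutant cochleae and 5881 to 7035 CPM in heterozygous cochleae, with 8 of 15 called, all lower, 12 lower and 1 higher with the block, and 1 lower without both replicate 1 libraries. In the vestibule they summed to 12785 to 13354 CPM in mutants and 10790 to 12224 CPM in heterozygotes. Of the 15 there 3 were called, all higher, and 7 higher and 1 lower with the block. Over all genes tested 2.52% were called lower in the cochlea and 2.41% higher in the vestibule. Without both cochlear replicate 1 libraries 185 of 17985 genes were called lower. The tip link gene Cdh23 fell in the cochlea by 1.77 on the log2 scale (SE 0.19), and its vestibular difference of 0.22 was not called. Rasd2 (1.59, SE 0.12) and Pvalb (1.56, SE 0.13) rose in the vestibule. Both were called lower in the cochlea, with changes of -0.86 and -0.90. Those 2 cochlear calls were lost without both replicate 1 libraries (limma, adjusted p 0.0552 and 0.0566). How these sums relate to the changes of the members was not tested.

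Supporting cell markers summed to 384 to 455 CPM in mutant cochleae and 358 to 418 CPM in heterozygous cochleae, and to 354 to 374 CPM in mutant vestibules and 277 to 381 CPM in heterozygous vestibules. Of the 8 limma called 0 in each organ, with 0 unadjusted in the cochlea and 1 higher and 2 lower unadjusted in the vestibule. In edgeR and DESeq2 0 were called in the cochlea, and in the vestibule edgeR called 0, DESeq2 1 higher and the block 2 higher and 3 lower. Macrophage markers summed to 2768 to 3372 CPM in mutant cochleae and 2266 to 2861 CPM in heterozygous cochleae. Of the 13 there 2 were higher, Lyz2 and Fcgr3, and 0 without both replicate 1 libraries. Over all cochlear genes 1.90% were called higher, and 181 of 17985 without both replicate 1 libraries. The Fcgr3 call was lost with edgeR and without heterozygous replicate 1 or any 1 mutant library (adjusted p up to 0.154). That of Lyz2 was lost in the fit of all 12 libraries (0.133). The vestibular sums of macrophage markers were 7090 to 8316 CPM in mutants and 7465 to 9494 CPM in heterozygotes, with 0 of 13 called by limma, edgeR or DESeq2, 2 lower unadjusted and 4 lower with the block. Mesenchyme markers summed to 1245 to 1386 CPM in mutant cochleae and 1165 to 1509 CPM in heterozygous cochleae, and to 1070 to 1460 CPM in mutant vestibules and 1931 to 2528 CPM in heterozygous vestibules. In the cochlea 0 of 9 were called by limma, edgeR or DESeq2, and 0 unadjusted in limma. In the vestibule 2 of 9 were lower, the collagen genes Col1a1 and Col3a1, where 1.09% of all genes were called lower, and 8 with the block. The Col1a1 call was lost without any single library other than heterozygous replicate 1 (adjusted p up to 0.122), and with edgeR.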

How the data were processed

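For each of the 12 libraries the authors deposited a table of CPM values, per the file headers. The submitters' processing notes name TopHat and GRCm38. For the counter, the annotation and the strand setting, the sources used here give nothing, so antisense genes cannot be separated. Every CPM value was a whole multiple of 1 read to within 1e-06 (100% of values), and reads were recovered from it. Counting intervals and floors (3 reads) cover counting error only. The triplicates are described as independent biological samples; none was a duplicate of another.

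Each organ was tested on its own, over genes reaching 1 CPM in 3 or more of its 6 libraries, by limma 3.58.1 (trend, R 4.3.3) on log2(CPM + 1) without a block, with Benjamini-Hochberg adjustment over all genes tested. edgeR 4.0.16 (quasi-likelihood) and DESeq2 1.42.0 were run on the recovered reads as alternatives, beside other pseudocounts, filters and scalings and the leaving out of libraries; scripts were tested on simulated data. Same-numbered libraries deviated together (correlation 0.226, 0.226 and 0.420 in the cochlea, 0.766, 0.508 and 0.599 in the vestibule). The numbers come from the sample titles and were read as a pairing because of these correlations. The main fits, with their SE and adjusted p, leave this pairing out. Blocked results are given as an alternative for members, their paralogs and some of the listed genes. Coordinates and exon lengths came from GENCODE M21 and promoters from RefSeq. Figures were drawn with matplotlib 3.10.9.

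The members, lists and tests were chosen with earlier results of these data known. Named genes were the members, their paralogs, called genes of the other lists with Srrm4 and Rest, up to 3 called genes per marker list, and the 2 nearest profiles of each called member; Gfi1, Cpeb3 and Hdac1 were added. A marker gene that the rule names is not reported here.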

Additional observations from a re-analysis of the deposited data

Results flagged for a closer look

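The change differed between the organs for 11 of the named genes, by the interaction of genotype and organ in limma (Benjamini-Hochberg adjusted p under 0.05 over 14674 genes, where 3.14% of genes were called). Most named genes outside the families were picked by their calls or profiles in these same libraries. A larger share among them than among all genes follows in part from that choice. Values are the cochlear change minus the vestibular change on the log2(CPM + 1) scale. Among the members it was Elavl4, at -1.61, with every mutant library above every heterozygous one in both organs. Fam196b and Mycl, the nearest profiles to Elavl2, differed by -1.53 and -0.88, and Nsg2, near Elavl3, by 1.48. They were picked for likeness to those members in the same libraries and add no separate support. These calls were lost in 15 of 23 alternatives (Fam196b), 16 of 24 (Mycl) and 13 of 24 (Nsg2). The growth cone genes Gap43 and Stmn2 differed by 2.40 and 2.17, the second of them lost in 14 alternatives. Cdkn1a differed by -1.03 and the splicing regulator gene Rbm24 by -1.07, which had negative cochlear and positive vestibular values. The hair cell genes Cdh23, Rasd2 and Pvalb differed by -1.99, -2.46 and -2.45.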

How the results depend on the processing

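Elavl3 in the cochlea and Elavl4 in both organs were called under every alternative run, with highest adjusted p of 0.00746 (Elavl3), 0.0286 (Elavl4, cochlea) and 0.0268 (Elavl4, vestibule). No named result changed sign while called. For the called members, 52 of 57 alternatives kept the call in the cochlea and 48 of 57 in the vestibule, and all kept the sign. A filter of 5 CPM left no vestibular value for Elavl3, Celf3 and Celf4.

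Of genes tested, 794 were called in the cochlea and 546 in the vestibule. With the replicate block 1532 and 3634 were called; without both replicate 1 libraries 366 and 863; without both vestibular replicate 3 libraries 49; in the vestibule 358 without a filter and 1234 with DESeq2. Leaving out 1 library gave 546 to 801 cochlear and 226 to 522 vestibular genes, 2 to 3 cochlear and 1 to 3 vestibular members, and 1 to 2 members differing between organs. Without both replicate 3 libraries 1 vestibular member was called and 0 members differed between organs (cochlear libraries left out); with the block 2 differed, in fits that called 1.91% and 13.3% of all genes. The cause of these changes was not tested.

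In the vestibule Elavl3, Celf3 and Celf4 had 0 to 5.33 CPM, and the 0 and the 3 reads of heterozygous replicate 3 were in the deepest library. With 3 libraries per group, a p that misses the threshold does not show that levels were equal.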
